A study of Mus musculus with 12 samples.

Results

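The comparison described here sets FL5.12 MycER cells given both 4-hydroxytamoxifen (OHT) and IACS-010759 (group OHT_IACS) against untreated cells of the same line, in 6 of 12 libraries. It asks for the net state of doubly treated cells, and for the genes in which the effects of the agents add or cancel. Every gene with an RPKM (reads per kilobase of gene, scaled to the library total) of at least 1 in at least 3 of the 12 libraries was a member, which left 9745 of 21671 genes.

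FL5.12 is an interleukin-3-dependent mouse cell line from the BALB/c strain, labelled prolymphocytic. The cells of all 4 groups carried MycER, a MYC-estrogen receptor chimera introduced with the retroviral vector pBabe-bleo and kept as an antibiotic-selected population. Untreated cells received neither agent. OHT cells received 100 nM OHT for 72 h, IACS cells received 135 nM IACS-010759 for 24 h, and OHT_IACS cells were primed for 48 h with 100 nM OHT before 24 h with 135 nM IACS-010759. Each group had 3 libraries of ribosomal-RNA-depleted RNA, described in the study as biological replicates. The labels give only a number, so where they are not separate cultures the p-values measure technical spread. Before work with the inhibitor the cells were passaged in medium low in glucose. The MycER protein is made all the time and OHT switches it on, so the untreated cells hold the inactive chimera.

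MYC is a transcription factor that binds E-box sequences with its partner MAX and is best known for raising genes of ribosome production, nucleotide synthesis and cell growth. IACS-010759 blocks complex I, the entry point of electrons from NADH into the respiratory chain. When respiration fails, cells commonly activate the integrated stress response: phosphorylation of eIF2 alpha slows general translation and favours that of ATF4, a transcription factor for amino acid synthesis and transport genes. Sterol synthesis, which needs oxygen, reducing power and ATP, is controlled separately by the SREBP factors and their INSIG inhibitors.

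The totals by which the deposited RPKM had been divided ran from 10376530 to 14550158 reads over the 12 libraries, and reads on genes from 4199265 to 5762338. The 3 OHT_IACS totals (11792608 to 11913079) lay below all 3 untreated totals (13375674 to 14550158), so that within these 6 libraries depth and group cannot be told apart. Of 22 genes that mark the B lineage, only 5 passed the filter on low values. In every library 8 of the 22 were listed at 0, among them Pax5, the factor that fixes B-cell identity, and Rag1, which cuts antigen receptor genes. A listed 0 need not mean that a gene is silent: Hmgcs1, a sterol enzyme that growing cells use, was listed at 0 in 10 of the 12 libraries, and 6220 genes were at 0 in all. Of 19 myeloid genes 13 passed, the summed level of the 19 lying between 183.0 and 194.0 in untreated libraries. Values are given as RPKM after scaling each library by its median ratio to the gene means ("scaled RPKM"), and changes as log2 fold change of scaled RPKM + 0.1, with the standard error (SE) of a single limma fit over all 12 libraries and a Benjamini-Hochberg adjusted p. A gene was called at an adjusted p below 0.05.

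Doubly treated cells differed from untreated cells in many genes, mostly by little. In OHT_IACS against untreated, 3850 of 9745 genes were called (39.5%), of which 1778 rose (18.2%) and 2072 fell (21.3%), while 4765 had an unadjusted p below 0.05. The balance of directions turned with the scaling: RPKM as deposited gave 2003 rises and 1678 falls, and quantile normalization 2192 and 2145. The median absolute log2 fold change of the called genes was 0.34, and 2861 of them changed by less than 0.5. Only 185 changed by at least 1, 101 of them upward and 84 downward. In 5623 genes (57.7%) the 3 OHT_IACS libraries did not overlap the 3 untreated ones. The single agents against the same untreated libraries gave 3492 calls for OHT (35.8%) and 1547 for IACS (15.9%). Of the 3850 genes called in doubly treated cells, 1647 were also called with OHT alone but not IACS alone, 567 with IACS alone but not OHT alone, 513 with each agent and 1123 with neither. These 3 comparisons share the untreated libraries.

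The median change of all genes was -0.002, and it moved with read density. Among the 84 genes with more than 1 read per base, 1 of them called, the median log2 fold change was 0.19, and among the 2386 genes below 0.05 reads per base it was -0.037. With the library total as a covariate these medians were -0.046 and 0.036. The part of depth in the changes of abundant genes was not tested further, and the lists of more abundant genes are also given below with the library total as covariate. The highest RPKM of any gene was 167.1. Over all genes that fit gave 1621 rises and 1711 falls. Counts of list members are to be read beside the shares over all genes, 18.2% rising and 21.3% falling. The share called in either direction also moved with read density. It was 45.4% at 0.1 to 0.3 reads per base, 38.1% at 0.3 to 0.5, 23.4% at 0.5 to 1 and 1.19% above 1. For lists of abundant genes the shares over all genes are thus an unlike background.

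**Figure D1:**
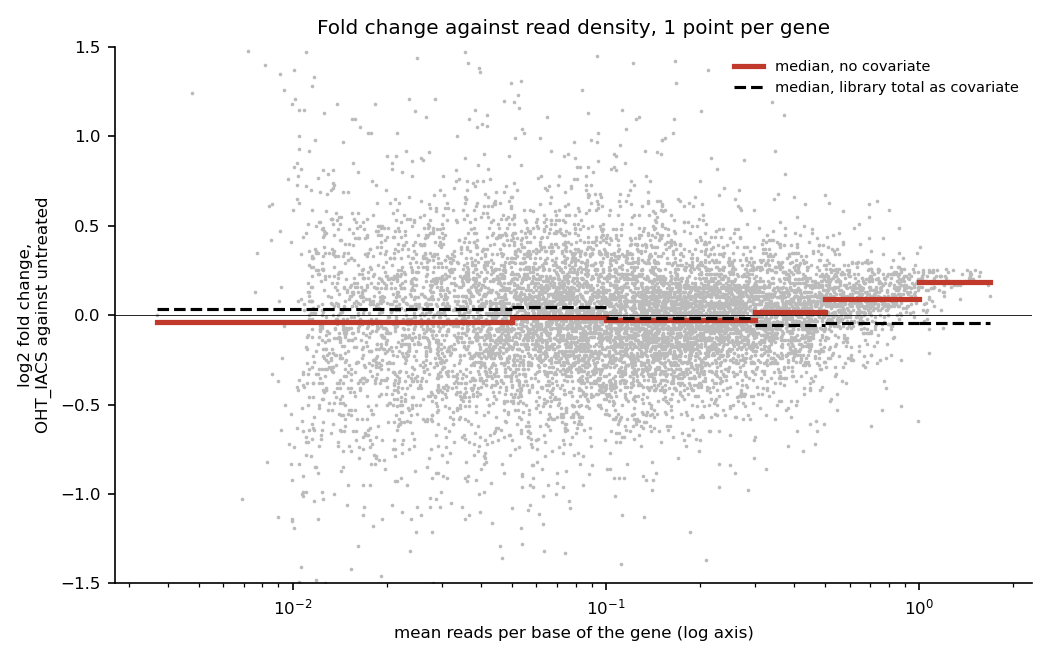
Log2 fold change of OHT_IACS against untreated (vertical axis) against the mean reads per base of each gene over the libraries (horizontal log axis), 1 grey point per gene, with 88 genes outside the vertical range. Red lines are medians within 6 ranges of read density, and dashed lines the same medians with the library total as covariate. The red medians climb from -0.037 to 0.19 and the dashed ones run from 0.036 to -0.046.

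The largest rises were in genes that a single agent already moved. Gpx6, a glutathione peroxidase, had 1, 0 and 0 reads in the untreated libraries and 97, 103 and 102 in the OHT_IACS libraries. The ratio of summed reads was 353.0 (95% exact binomial interval 62.9 to 14000, counting error only), and IACS libraries held 0 reads against 64, 100 and 68 with OHT. Cox6a2, the muscle form of a cytochrome c oxidase subunit, had 1, 2 and 1 untreated reads and 27, 35 and 30 OHT_IACS reads, a ratio of 26.9 (10.1 to 101.0). It stood at 63, 44 and 40 reads with IACS and 1, 6 and 2 with OHT. Both genes were thus near 0 in untreated cells, and each was higher with 1 of the agents alone.

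Fig4, a phosphoinositide phosphatase, was at 0.724, 0.967 and 0.995 scaled RPKM untreated and 8.65, 7.72 and 7.59 in OHT_IACS (log2 fold change 3.03, SE 0.12, adjusted p = 1.1e-09). OHT alone gave 8.46, 8.81 and 7.96, a range that overlapped that of both agents. Extl1, a glycosyltransferase of the exostosin family, went the other way round: 0.611, 0.511 and 0.566 untreated, 4.88, 4.51 and 5.52 with IACS, and 3.58, 4.18 and 3.48 with both (2.54, SE 0.17, adjusted p = 2.7e-07). Aqp9, a channel for water and glycerol, rose from 3.48, 3.27 and 3.02 to 22.8, 23.2 and 21.9, a 6.8-fold change (2.76, SE 0.08, adjusted p = 3e-10). The largest rises and falls were named only from genes without overlap of untreated and doubly treated libraries. That separation was fixed by the choice.

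The largest falls were in genes of granulocytes. S100a8, a subunit of the calprotectin dimer, was at 27.4, 21.8 and 21.2 scaled RPKM untreated and 3.01, 3.18 and 2.62 with both agents (-2.95, SE 0.18, adjusted p = 1.3e-07). Its partner S100a9 was at 29.2, 26.4 and 26.4 against 4.81, 4.57 and 5.41 (-2.45, SE 0.12). With IACS alone both stayed near the untreated level (19.6 to 22.6 and 28.3 to 32.4), and with OHT alone both were low (2.69 to 5.28 and 3.29 to 5.22). Ngp, a neutrophil granule protein, had 12, 31 and 28 reads in untreated libraries and 0 in all 3 OHT_IACS libraries, at least 20.3-fold lower against a floor of 3 reads over the group. In bulk RNA, fewer cells of a type and less RNA per cell cannot be told apart.

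Another large fall was that of Ifitm6 (-2.13, SE 0.18), an interferon-induced transmembrane protein. Gm5483, which RefSeq lists as Cstdc4, fell by 2.70 on the log2 scale with a larger error (SE 0.49, adjusted p = 0.0008), and since close copies of it exist its reads could be split among them. Gm5424 fell by 2.19 (SE 0.21). RefSeq lists it as a transcribed pseudogene, and Ass1, the argininosuccinate synthase it resembles, fell by 1.54 (SE 0.27). Reads of these last genes may be shared, which was not tested.

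The net change of a gene is the sum of its average OHT effect (over cells with and without IACS) and its average IACS effect (over cells with and without OHT). Of 9745 genes, 4395 were called for the average OHT effect (45.1%) and 3274 for the average IACS effect (33.6%). Both were called in the same direction in 677 genes (6.95%), 292 higher with each agent and 385 lower, and every such gene was called in the net comparison, in the direction that the sum fixes. Opposite average effects with no net call were found in 731 genes (7.5%). Of the 428 genes higher with OHT and lower with IACS, 318 were not called in the net comparison, 73 rose and 37 fell. Of the 590 lower with OHT and higher with IACS, 413 were not called, 53 rose and 124 fell.

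**Figure D2:**
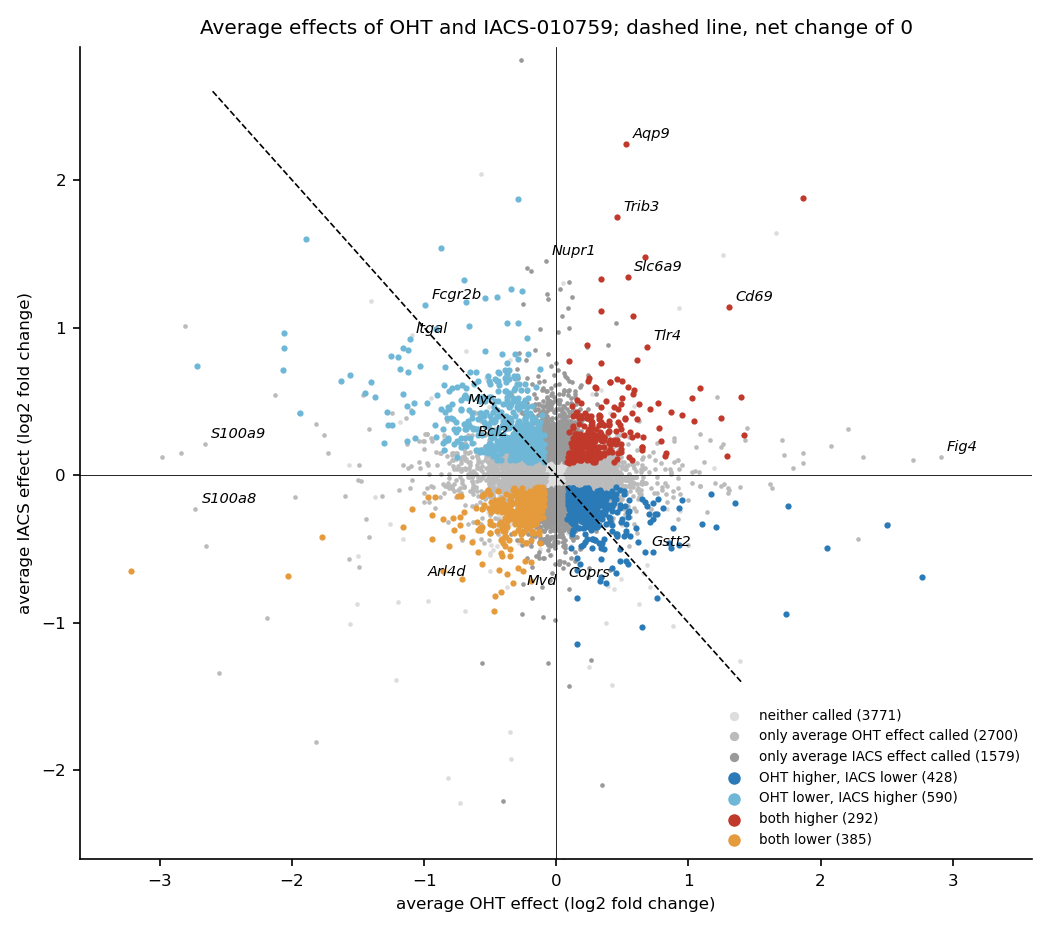
Average OHT effect (horizontal axis) against average IACS effect (vertical axis), both as log2 fold change, 1 point per gene, coloured by which effects were called; the dashed line marks a net change of 0 and 5 genes lie outside the axes. Aqp9, Trib3 and Cd69 sit in the upper right among the 292 genes higher with both agents, and Myc, Bcl2, Fcgr2b and Itgal near the dashed line.

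Cd69, Klf6, Tlr4 and Kif21b were raised by each agent. Cd69, an early activation marker of lymphocytes, stepped up from 1.2, 1.29 and 1.33 scaled RPKM untreated to 3.91, 3.64 and 3.53 with OHT, 3.39, 3.59 and 2.89 with IACS and 7.51, 7.19 and 7.39 with both. The net log2 fold change was 2.44 (SE 0.09, adjusted p = 6.7e-10), made of 1.31 from OHT and 1.14 from IACS. Klf6, a zinc finger transcription factor, was at 5.33 to 5.45 untreated and 17.2 to 17.8 with both (1.68, SE 0.06), of which 1.09 came with OHT and 0.59 with IACS. Tlr4, the receptor for bacterial lipopolysaccharide, was at 1.47 to 2.42 untreated, 3.08 to 4.13 with OHT, 3.73 to 4.07 with IACS and 5.57 to 6.68 with both. Kif21b, a kinesin motor, rose by 1.38 (SE 0.15). In Cd69, Klf6 and Tlr4 the doubly treated libraries lay above every library of the other 3 groups.

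Among genes that each agent lowered, Arl4d, a small GTPase of the ARF family, was at 8.55, 7.81 and 7.56 untreated and between 3.46 and 4.93 with either agent, and reached 3.66, 3.67 and 3.16 with both (-1.17, SE 0.12, adjusted p = 6.5e-06). The doubly treated libraries overlapped those of each single agent, although both average effects were called (-0.56 and -0.60). Fn3krp, a ketosamine kinase, fell by 1.11 (SE 0.13), its OHT_IACS libraries at 2.87 to 3.24 lying below all others. Tnfaip8l1 fell by 1.29 (SE 0.17) to 0.677 to 0.879, a range that overlapped that of OHT alone (0.832 to 1.22). Klf1, an erythroid transcription factor, was at 13.1 to 13.8 untreated, 9.09 to 10 with OHT, 6.54 to 7.26 with IACS and 4.94 to 5.36 with both, a descent without overlap (-1.39, SE 0.06, adjusted p = 2.8e-09).

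**Figure D3:**
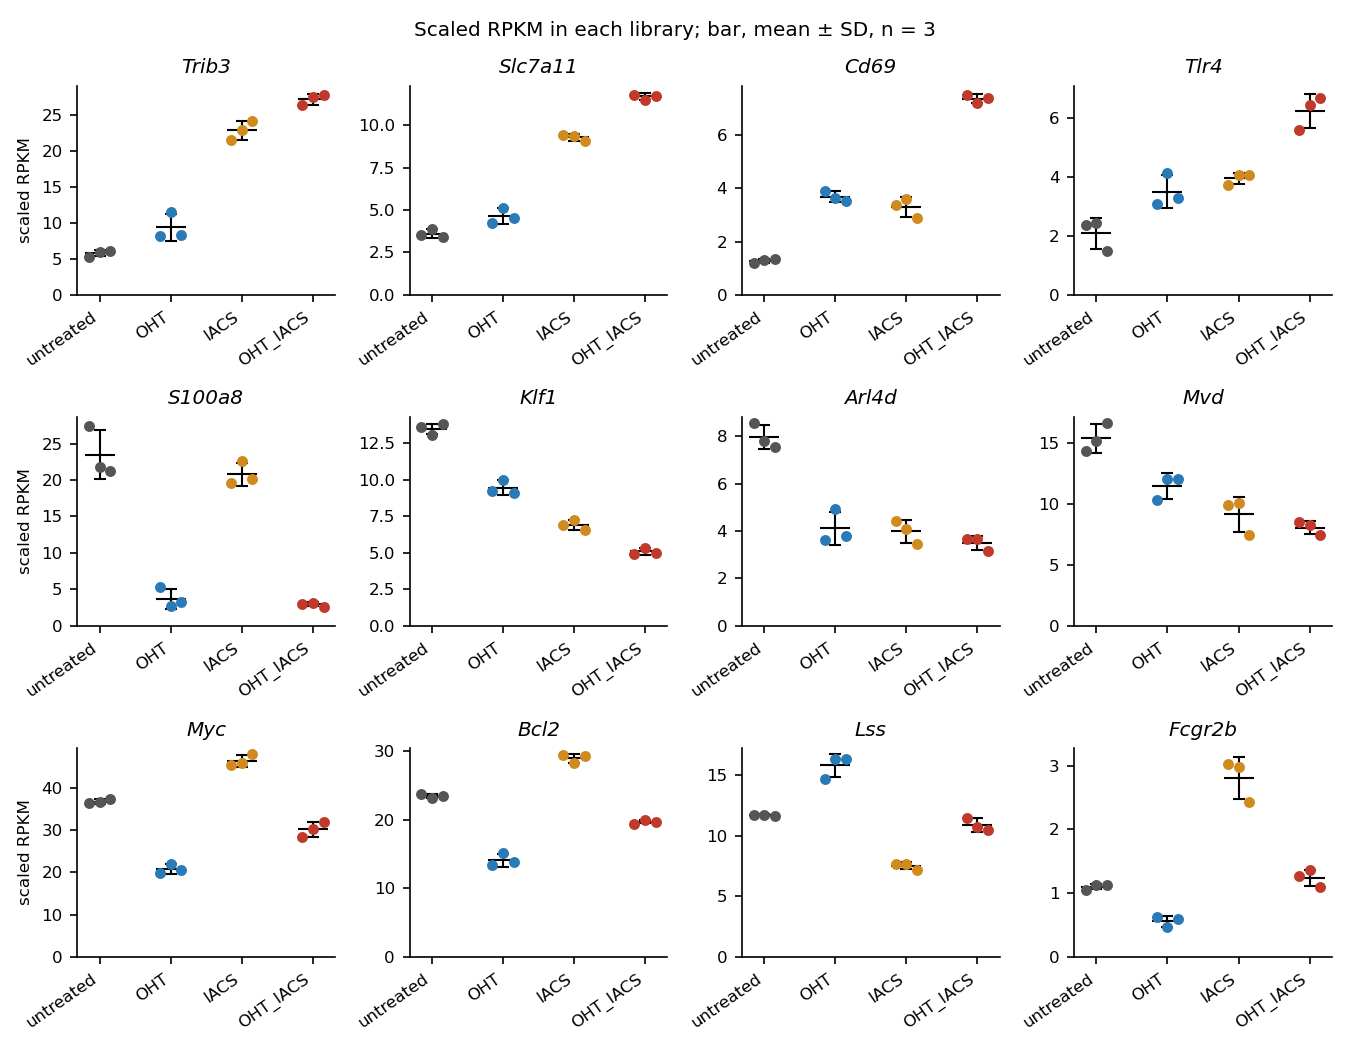
Scaled RPKM (vertical axes, from 0) of 12 genes in the 4 groups, 1 point per library, with bars at the mean ± SD of 3 libraries. In the top row the OHT_IACS libraries are the highest, in the middle row the lowest or among the lowest, and in the bottom row they lie between the OHT and the IACS libraries.

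The genes named for cancelling were chosen for having opposite effects and no net call, so that their closeness to the untreated level is a description. Lss, the lanosterol synthase of the sterol pathway, was at 11.7, 11.7 and 11.6 untreated, 14.7, 16.3 and 16.3 with OHT, 7.7, 7.66 and 7.19 with IACS and 11.5, 10.7 and 10.5 with both. Its net change was -0.10 (95% interval -0.22 to 0.02, adjusted p = 0.16) beside 0.48 from OHT and -0.58 from IACS. Coprs, a partner of the arginine methyltransferase PRMT5, behaved alike with 15.6 to 17.8 untreated and 15.1 to 16.6 with both (-0.05, interval -0.21 to 0.11). Gstt2, a glutathione transferase, came to 0.14 (-0.13 to 0.42) and Cd209c, a C-type lectin, to -0.21 (-0.50 to 0.08). The untreated and doubly treated libraries overlapped in Coprs, Gstt2 and Cd209c, not in Lss.

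Fcgr2b, Itgal, Ptpn22 and Lilrb4 were lower with OHT and higher with IACS. Fcgr2b, the inhibitory Fc receptor, was at 1.05, 1.12 and 1.13 untreated, 0.62, 0.464 and 0.597 with OHT, 3.03, 2.98 and 2.43 with IACS and 1.27, 1.36 and 1.1 with both. The single agents differed from each other several-fold, while the net change was 0.16 (interval -0.16 to 0.48, adjusted p = 0.42). Itgal, the alpha chain of the integrin LFA-1, came to -0.19 (-0.60 to 0.21) from -1.11 with OHT and 0.92 with IACS, and Ptpn22, a phosphatase of antigen receptor signalling, to 0.08 (-0.23 to 0.39). Lilrb4, an inhibitory receptor with a close neighbour copy that could share reads, came to -0.27 (-0.78 to 0.25). The intervals of these 4 genes are wide, and a missing call does not show an unchanged level.

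Myc and Bcl2 showed the same pattern in part. The gene Myc was at 36.5, 36.6 and 37.4 scaled RPKM untreated, 19.8, 22.1 and 20.7 with OHT, 45.5, 45.9 and 48.1 with IACS and 28.5, 30.4 and 31.9 with both. OHT lowered it by 0.72 on average and IACS raised it by 0.44, which left a net fall by 0.28 (SE 0.05, adjusted p = 0.0011). Whether reads of the MycER transgene entered this gene was not tested. Bcl2, the antiapoptotic founder of its family, was at 23.8, 23.2 and 23.5 untreated, 13.4, 15.2 and 13.8 with OHT, 29.4, 28.3 and 29.3 with IACS and 19.4, 19.9 and 19.7 with both (-0.25, SE 0.05, adjusted p = 0.00096). For both genes the 4 groups did not overlap, and doubly treated cells lay between untreated and OHT cells.

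Of the 21 listed BCL2 family genes 12 were tested, and beside the background of 18.2% and 21.3% 2 rose and 4 fell. With the library total as covariate 1 rose and 5 fell. Bad, a BH3-only sensitizer, fell by 0.68 (SE 0.12), lower with each agent (-0.39 and -0.29), and Bid, the BH3-only link to death receptors, by 0.20 (SE 0.05). The effector Bax rose by 0.27 (SE 0.07, adjusted p = 0.0069), an increase that missed the threshold with the library total as covariate (0.19, adjusted p = 0.063). Bbc3, which encodes PUMA, rose by 0.33 (SE 0.11, adjusted p = 0.024), a call lost without untreated replicate 1 (adjusted p = 0.079), untreated replicate 3 (0.052) or OHT_IACS replicate 2 (0.10). Bcl2l1 fell by 0.14 at an adjusted p of 0.047, which was above 0.05 in 13 alternative settings (0.29 with the library total as covariate). Mcl1 (-0.09, interval -0.20 to 0.01), Bak1 (-0.12, adjusted p = 0.067, but 0.014 with the library total as covariate) and Bcl2l11 (-0.24, -0.55 to 0.06) were not called. Over the alternative settings the change of Mcl1 ran from -0.14 to -0.07, with a lowest adjusted p of 0.013.

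Members of the integrated stress response lists rose more often than they fell, beside 18.2% rising and 21.3% falling among all genes. Of 17 tested regulators of the response 11 rose and 1 fell, with a median of 0.43, of 13 amino acid transporters 9 rose and 1 fell (0.46), of 20 cytosolic tRNA synthetases 14 rose and none fell (0.26), and of 19 enzymes of serine, one-carbon and aspartate metabolism 13 rose and 3 fell (0.26). With the library total as covariate the regulators had 11 rises (median 0.52), the transporters 9 (0.41), the synthetases 12 (0.19) and the enzymes 10 (0.12). The medians of the average OHT effect in these lists were 0.01, 0.15, 0.07 and 0.13, and those of the average IACS effect 0.27, 0.33, 0.21 and 0.14.

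Trib3, a pseudokinase induced by ATF4, was at 5.31, 5.98 and 6.16 scaled RPKM untreated, 8.22, 11.6 and 8.34 with OHT, 21.5, 22.9 and 24.2 with IACS and 26.4, 27.5 and 27.8 with both (2.21, SE 0.11, adjusted p = 1e-08). The doubly treated libraries were the highest of all 12. Atf5, a related factor, was at 2.97 to 3.59 untreated, 1.88 to 3 with OHT, 10.4 to 11.9 with IACS and 8.67 to 10.3 with both (1.57, SE 0.13). Its average OHT effect was negative (-0.29) beside 1.87 for IACS. Nupr1, a stress-induced chromatin protein, rose by 1.37 (SE 0.10) and Ddit3, which encodes CHOP, by 0.98 (SE 0.07), both with an average OHT effect that was not called (-0.08 and 0.01). Atf4 itself went from 69.7, 67 and 68.5 to 86.5, 88.3 and 86.4 (0.35, SE 0.08, adjusted p = 0.0051). It was at 85.8, 69.2 and 83.2 with OHT and 77.8, 75.5 and 89.1 with IACS. Over the alternative settings its net change ran from 0.17 to 0.37, with an adjusted p of at most 0.023. The fit with the library total as covariate is among these settings, and the part of depth in this rise was not tested further. Eif2ak2, which encodes the kinase PKR, was the fall in the list (-0.63, SE 0.07), and Eif2ak3, which encodes PERK, was not called (-0.23, adjusted p = 0.10).

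Transporters often carried both effects. Slc6a9, a glycine transporter, was at 1.91, 2.48 and 2.37 untreated, 2.65 to 4.04 with OHT, 5.52 to 6.1 with IACS and 8.65, 8.38 and 8.69 with both (1.89, SE 0.13, adjusted p = 2.5e-07). Slc7a11, the cystine-glutamate exchanger, was at 3.52, 3.89 and 3.41 untreated and 11.8, 11.5 and 11.7 with both (1.67, SE 0.07), with 0.34 from OHT and 1.33 from IACS. Slc7a1, a transporter of cationic amino acids, gained 0.47 from OHT and 0.45 from IACS and rose by 0.92 (SE 0.06). Each of these 3 was higher in the doubly treated libraries than in any other. Both effects were called in the same direction in 8 of the 13 transporters, in 8 of the 17 regulators, in 3 of the 19 enzymes and in 2 of the 20 synthetases, beside 6.95% of all genes. Slc43a1, a transporter of large neutral amino acids, was the transporter that fell (-0.55, SE 0.09).

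Within the enzymes, Pck2 and Pycr1 met opposed effects and still rose. Pck2, the mitochondrial phosphoenolpyruvate carboxykinase, was at 21.5, 21.4 and 22 untreated, 14.2, 15.7 and 14.8 with OHT, 39.2, 38.5 and 40.5 with IACS and 34.8, 33.7 and 33.6 with both (0.65, SE 0.04, adjusted p = 2.9e-07). Pycr1, which makes proline in mitochondria, rose by 0.99 (SE 0.08) from -0.26 with OHT and 1.25 with IACS. Asns, the asparagine synthetase, rose with each agent (0.22 and 0.42) and by 0.64 in all (SE 0.07). Among the tRNA synthetases Iars (0.47, SE 0.05), Cars (0.43, SE 0.05) and Gars (0.40, SE 0.08) rose most.

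Promoter sequences of 4 of these rising genes are shown because each holds the C/EBP-ATF composite letters, the kind of element that ATF4 dimers with C/EBP proteins are known to bind. The sequences are from RefSeq (GRCm38.p6, not the build to which the reads were aligned) and run over the 250 bases before each gene start, written 5′ to 3′ on the strand of the gene, with every match to TGATGNAA or its reverse complement in capitals.
Aqp9, chr9:71162634-71162883, minus strand: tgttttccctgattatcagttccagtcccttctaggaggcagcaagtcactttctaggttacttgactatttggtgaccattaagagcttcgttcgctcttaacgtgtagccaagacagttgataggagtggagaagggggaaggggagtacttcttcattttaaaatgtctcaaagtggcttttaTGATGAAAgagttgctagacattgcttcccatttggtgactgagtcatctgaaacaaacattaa
Slc7a11, chr3:50443614-50443863, minus strand: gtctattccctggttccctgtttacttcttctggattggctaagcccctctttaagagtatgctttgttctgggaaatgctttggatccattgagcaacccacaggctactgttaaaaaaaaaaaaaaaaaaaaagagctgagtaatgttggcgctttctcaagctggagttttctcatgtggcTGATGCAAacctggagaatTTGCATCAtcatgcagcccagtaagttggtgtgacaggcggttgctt
Nupr1, chr7:126625471-126625720, minus strand: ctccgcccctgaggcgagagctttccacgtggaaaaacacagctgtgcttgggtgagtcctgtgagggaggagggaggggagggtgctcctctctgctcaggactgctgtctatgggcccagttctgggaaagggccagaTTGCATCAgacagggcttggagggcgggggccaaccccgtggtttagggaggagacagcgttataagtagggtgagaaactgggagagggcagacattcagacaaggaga
Pck2, chr14:55540016-55540265, plus strand: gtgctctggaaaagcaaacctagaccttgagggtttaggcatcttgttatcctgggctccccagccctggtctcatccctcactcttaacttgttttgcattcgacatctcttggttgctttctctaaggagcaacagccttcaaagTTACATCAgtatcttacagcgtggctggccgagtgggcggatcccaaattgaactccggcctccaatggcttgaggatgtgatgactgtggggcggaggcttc
The matches began 64 bases before the start in Aqp9, 66 and 47 bases in Slc7a11, 110 in Nupr1 and 103 in Pck2. Of 9745 genes tested, 7799 had a promoter in the table, and 181 of these (2.32%) held the letters, as did 47 of 1453 matched genes that rose (3.23%) and 3.91% of all 27025 genes of the table. Of the 47 members of the 4 integrated stress response lists that rose, 39 were matched and 10 held the letters (25.6%), among them Asns, Gars and Pycr1. Trib3, Atf5, Ddit3 and Slc6a9 were not among the 10, for lack of the letters or of a matched promoter. Aqp9 belongs to none of these lists. Over all 69 tested members of these lists 55 were matched and 10 held the letters (18.2%). The lists were drawn up for this response, so these shares are a description. Of 465 matched genes lower with OHT and higher with IACS, 28 held the letters (6.02%). They were held by 3.38% of 237 matched genes higher with both agents and 1.28% of 312 lower with both. The share was 1.19% of 335 matched genes higher with OHT and lower with IACS. The E-box CACGTG was in 10.3% of matched tested genes and 10.8% of matched genes that rose. It was in 4 of 48 matched ribosome biogenesis genes (8.33%). Its shares in the classes above, in the order given, were 10.8%, 11.4%, 9.29% and 14.9%. TCACNCCAC, the letters of a sterol response element, was in 1.21% of matched tested genes and 1.1% of those that rose. It was in 0 of 14 matched sterol synthesis genes. Both strands were searched, and none of these 3 sets of letters contains another. A match is only a match of letters in this window.

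Sterol synthesis genes mostly fell in doubly treated cells. Of 19 tested enzymes 12 fell and 1 rose, beside 21.3% and 18.2% of all genes, with a median of -0.23, made of a median average OHT effect of 0.16 and a median average IACS effect of -0.40. With the library total as covariate 10 fell and 1 rose (median -0.24). In 5 of the 19 the opposed effects left no net call, beside 7.5% of all genes. Mvd, which makes isopentenyl diphosphate, was lower with each agent and fell from 14.4, 15.2 and 16.7 to 8.5, 8.25 and 7.49 scaled RPKM (-0.92, SE 0.11, adjusted p = 2e-05). Hsd17b7, an enzyme of the later pathway, fell by 0.57 (SE 0.07), and Pmvk, the phosphomevalonate kinase, by 0.48 (SE 0.08). The exception was Mvk, the mevalonate kinase, at 10.1, 10 and 9.5 untreated, 16.5, 15.1 and 15.1 with OHT, 6.54, 6.85 and 5.31 with IACS and 14.3, 12.8 and 11.8 with both (0.39, SE 0.09, adjusted p = 0.0036).

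Regulators of sterol and fatty acid genes divided. Of 18 tested, 4 rose and 7 fell, beside 18.2% and 21.3% of all genes, with a median of -0.04. Insig1, which holds SREBP in the endoplasmic reticulum, was at 24.5, 24.6 and 23.9 untreated, 26 to 26.7 with OHT, 12.4 to 13.5 with IACS and 15.1, 15.4 and 15.3 with both (-0.67, SE 0.04, adjusted p = 1.8e-07). Stard4, a carrier of cholesterol between membranes, was at 13.8 to 14.5 untreated and 22.4 to 24.4 with both, and rose by 0.71 (SE 0.05) on an OHT effect of 0.93. Abca1, a cholesterol exporter, fell by 0.58 (SE 0.20, adjusted p = 0.032), a call lost without any 1 of untreated replicates 1, 2 or 3 or OHT_IACS replicates 2 or 3 (adjusted p from 0.057 to 0.11), with no filter (0.056) and with the library total as covariate (0.15).

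**Figure D4:**
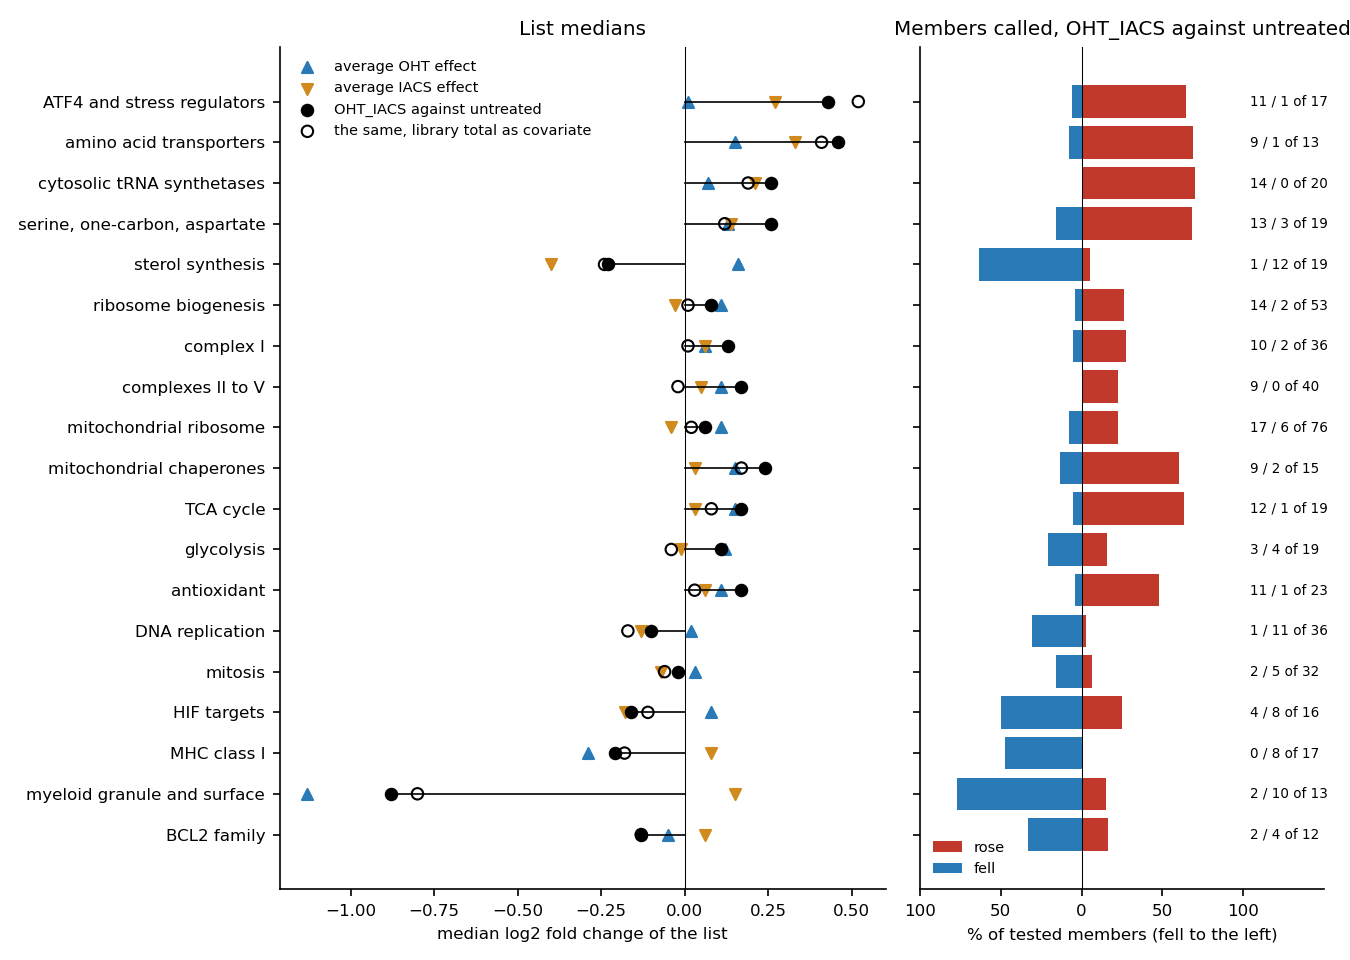
Left, median log2 fold change of 19 gene lists for the average OHT effect (triangles up), the average IACS effect (triangles down), and OHT_IACS against untreated without (filled circles) and with (open circles) the library total as covariate. Right, percent of tested members of each list that rose (red, to the right) or fell (blue, to the left) in OHT_IACS against untreated, with the counts; 14 of 20 tRNA synthetases rose and 12 of 19 sterol genes fell.

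Most respiratory chain genes were not called, and the counts depended on the fit. The median read density was 0.498 reads per base for complex I and 0.688 for complexes II to V. Among all genes, 38.1% were called at 0.3 to 0.5 reads per base and 23.4% at 0.5 to 1. Of 36 complex I subunits 10 rose and 2 fell (median 0.13), beside 18.2% and 21.3% of all genes, but 3 rose and 4 fell (0.01) with the library total as covariate. Of 40 subunits of complexes II to V 9 rose and none fell (0.17), but 3 rose and 6 fell (-0.02) with the covariate. Ndufv3 fell in spite of this, from 23.1, 21.8 and 23.3 to 14, 15.5 and 13.8 scaled RPKM (-0.65, SE 0.05, adjusted p = 1.1e-06), lower with each agent. Of 76 mitochondrial ribosomal proteins 17 rose and 6 fell (0.06), and with the covariate 11 rose and 12 fell (0.02). Mrpl22 was the largest rise, 26.9 to 27.2 against 41.1 to 42.5 (0.62, SE 0.08), with an average OHT effect of 0.72.

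Of 19 tested genes listed for the tricarboxylic acid cycle 12 rose and 1 fell, beside 18.2% and 21.3% of all genes, with a median of 0.17 (0.08, 7 and 1 with the covariate). The fall was Idh1, the cytosolic NADP-dependent isocitrate dehydrogenase, which was listed although it is not part of the mitochondrial cycle. It was at 7.94, 9.03 and 8.31 untreated, 10.6, 10.9 and 11.4 with OHT, 3.92, 3.1 and 3.13 with IACS and 7.09, 6 and 6.36 with both (-0.37, SE 0.09, adjusted p = 0.005). Opposed effects of 0.65 and -1.03 thus left a modest net fall. Of 15 mitochondrial chaperones and proteases 9 rose and 2 fell (median 0.24, 0.17 with the covariate), led by Spg7 (0.49, SE 0.08) and Lonp1 (0.43, SE 0.05), both mitochondrial proteases. Htra2 (-0.40, SE 0.07) and Phb (-0.32, SE 0.07), which encodes prohibitin, fell.

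Glycolysis held 3 rises and 4 falls among 19 tested genes, shares near the 18.2% and 21.3% of all genes, with a median of 0.11 that was -0.04 with the covariate. Hk2, a hexokinase, rose by 0.37 (SE 0.08). Pfkfb4, a regulator of phosphofructokinase, fell by 0.74 (SE 0.10), lower with each agent, and the phosphofructokinase subunits Pfkm and Pfkl fell by 0.41 (SE 0.08) and 0.27 (SE 0.05). Of 16 targets and regulators of the hypoxia-inducible factors 8 fell and 4 rose, beside 21.3% and 18.2% of all genes, with a median of -0.16 (6 and 4, -0.11 with the covariate). Egln3, an oxygen-sensing prolyl hydroxylase, was at 7.29, 8.3 and 8.36 untreated and 3.24, 3.17 and 2.95 with both (-1.33, SE 0.11, adjusted p = 1.6e-06), with IACS alone at 2.51 to 3.47. Ankrd37 fell by 1.32 (SE 0.23). Vegfa, Ero1l and P4ha1 rose by 0.63 (SE 0.04), 0.68 (SE 0.05) and 0.62 (SE 0.06), Vegfa and Ero1l with each agent. Of 3 tested targets of the glucose sensor MondoA 1 fell. Txnip, a glucose-responsive inhibitor of thioredoxin, fell by 0.21 (SE 0.05) from 0.27 with OHT and -0.49 with IACS.

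Ribosome biogenesis, the textbook MYC programme, rose in 14 of 53 genes and fell in 2, beside 18.2% and 21.3% of all genes. Its median was 0.08, with 0.11 from OHT and -0.03 from IACS, and with the library total as covariate 12 rose and 9 fell (median 0.01). Polr1a, the largest subunit of RNA polymerase I, was at 9.32, 9.8 and 10.5 untreated and 16.2, 13.5 and 15.1 with both (0.59, SE 0.08, adjusted p = 8.3e-05), and at 13.9 to 16.2 with OHT alone. Rrp9, a U3 snoRNA-binding protein, rose by 0.49 (SE 0.07). Ftsj3, an rRNA methyltransferase, fell by 0.26 (SE 0.06). Of 10 genes of the MYC network itself 2 rose and 3 fell. Mxi1, a MAX partner that opposes MYC, rose by 0.59 (SE 0.06), and Mxd3, another such partner, fell by 0.83 (SE 0.09) with a part from each agent.

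Nucleotide synthesis held 3 rises and 7 falls among 27 genes, beside 18.2% and 21.3% of all genes, with a median of 0.01. With the covariate there were 1 rise and 12 falls (-0.10). Tk1, the thymidine kinase of S phase, was at 47.1, 46.3 and 47.7 untreated and 31.8, 31.6 and 29.2 with both (-0.61, SE 0.06, adjusted p = 3.4e-06), lower with each agent. Uck2, a uridine-cytidine kinase, rose by 0.29 (SE 0.08), though at an adjusted p of 0.050 with the covariate. Of 11 polyamine genes Srm, the spermidine synthase, rose by 0.23 (SE 0.07, adjusted p = 0.016, and 0.052 without untreated replicate 3) and 3 fell, led by Oaz2, an antizyme (-0.52, SE 0.05). The median of the list was -0.03, and -0.11 with 1 rise and 3 falls with the covariate.

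Of 36 replication genes 11 fell and 1 rose, beside 21.3% and 18.2% of all genes, with a median of -0.10, and 20 against 1 (-0.17) with the covariate. Gins3 and Gins2, parts of the helicase at the fork, fell by 0.60 (SE 0.09) and 0.49 (SE 0.08), and Rfc3, of the clamp loader, by 0.39 (SE 0.07). Pold2, a DNA polymerase delta subunit, rose by 0.23 (SE 0.06). Of 32 mitotic genes 2 rose and 5 fell (median -0.02), and with the covariate 2 rose and 11 fell (-0.06), with Cdc25c, a phosphatase that starts mitosis, at 11 to 11.5 untreated and 6.99 to 7.59 with both (-0.62, SE 0.07, adjusted p = 2e-05). Among 18 regulators of G1, 4 rose and 6 fell (3 and 5 with the covariate), beside 18.2% and 21.3% of all genes. Cdkn2b, which encodes the CDK inhibitor p15, rose by 1.13 (SE 0.30, adjusted p = 0.0087) at a low level of 1.15, 2.45 and 1.35 with both, and Ccnd2, a D-type cyclin, rose by 0.45 (SE 0.05). Of 14 p53 targets 5 rose and 3 fell (5 and 2 with the covariate). Gadd45a, a stress gene that is also known as an ATF4 target, rose by 0.31 (SE 0.09, adjusted p = 0.013, and 0.067 without untreated replicate 1) from -0.54 with OHT and 0.84 with IACS.

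Myeloid granule and surface genes fell in 10 of 13 cases and rose in 2, with a median of -0.88, beside 21.3% falling among all genes. With the library total as covariate 8 fell and 2 rose (median -0.80). The average OHT effect had a median of -1.13 and the IACS effect of 0.15. The summed level of the list was 129.0 to 140.0 in OHT_IACS libraries, below the untreated range (183.0 to 194.0). With OHT alone it was lower, at 94.6 to 100.0, and with IACS alone it was 185.0 to 206.0. The rises were Gzmb, the cytotoxic protease granzyme B, and Cfp, properdin of the complement system. Gzmb was at 22.9, 22.3 and 21.3 untreated, 15.4, 16.5 and 15.4 with OHT, 33.1, 31.6 and 32.7 with IACS and 44.2, 49.8 and 51.4 with both (1.12, SE 0.06, adjusted p = 1.9e-08), so that doubly treated cells were the highest although OHT alone lowered it. Of 3 tested mast cell genes 2 rose. Cpa3, a granule carboxypeptidase, rose from 5.25, 4.68 and 4.08 to 11.1, 13.3 and 14.3 (1.45, SE 0.12) and Hdc, which makes histamine, by 1.75 (SE 0.30), while Gata2, also a factor of other blood cells, was not called, at 34.3 to 35.4 untreated and 33.2 to 34.3 with both. Kit and Prss34 were listed at 0 in every library.

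Of 17 genes of MHC class I presentation and interferon signalling 8 fell and none rose, beside 21.3% and 18.2% of all genes, with a median of -0.21 (-0.29 from OHT, 0.08 from IACS). With the library total as covariate 6 fell and none rose (median -0.18). Nlrc5, the transactivator of class I genes, was at 1.22, 1.12 and 1.36 untreated and 0.363, 0.417 and 0.344 with both (-1.49, SE 0.21, adjusted p = 0.00011), and at 0.195 to 0.373 with OHT. Irf1, an interferon-regulated factor, fell by 0.78 (SE 0.11) and Psmb10, an immunoproteasome subunit, by 0.73 (SE 0.08). Of 15 genes of interleukin-3 and JAK-STAT signalling 6 rose and 3 fell (6 and 2 with the covariate), beside 18.2% and 21.3% of all genes. Stat5a fell by 0.61 (SE 0.10) while its paralogue Stat5b rose by 0.30 (SE 0.07), and among their feedback inhibitors Socs1 rose by 0.50 (SE 0.10) and Socs2 fell by 0.40 (SE 0.08). Of the 5 tested B-lineage genes 2 fell. They were Cd79b, a chain of the B cell receptor complex, at 2.63 to 3.3 untreated and 1.13 to 1.8 with both (-1.03, SE 0.17), and Ptprc, the leukocyte antigen CD45 (-0.14, SE 0.05, adjusted p = 0.028), a call lost without untreated replicate 1 or 2 or OHT_IACS replicate 3 (adjusted p from 0.09 to 0.12) and with RPKM as deposited (0.11). Of the T and NK cell genes the only member tested, Cd3g, was not called (-0.32).

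Antioxidant genes rose in 11 of 23 cases and fell in 1, beside 18.2% and 21.3% of all genes, with a median of 0.17 (0.03, 7 and 1 with the covariate). Hmox1, heme oxygenase, rose with each agent, from 10.8, 11.1 and 12.9 to 18.1, 20.6 and 20 (0.75, SE 0.08, adjusted p = 1.7e-05). Cat, catalase, rose by 0.41 (SE 0.04) and Me1, which makes NADPH, by 0.52 (SE 0.11). Gpx1, the main cellular glutathione peroxidase, was not called (0.12, interval -0.04 to 0.28). Chaperones of the endoplasmic reticulum did not share a direction, with 3 rises and 5 falls of 23, shares near or below those of all genes, and a median of 0.02 that was -0.11 with the covariate, under which 12 fell. The sensor Atf6 rose by 0.42 (SE 0.05), whereas Creld2 and Dnajc3 fell by 0.48 (SE 0.06) and 0.46 (SE 0.06). Of 26 lysosomal genes 7 rose and 2 fell (6 and 3 with the covariate), beside 18.2% and 21.3% of all genes. Glb1, the lysosomal beta-galactosidase, rose by 0.59 (SE 0.07), and Lipa, the acid lipase, fell by 0.68 (SE 0.06). Of 5 erythroid genes tested, Hbb-b1, a beta globin with a near-identical copy that could share its reads, rose at a low level (1.18, SE 0.18) and Klf1 fell, as given above.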

How the data were processed

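Libraries were grouped by the treatment in their labels. The authors prepared stranded, ribosomal-RNA-depleted libraries and deposited RPKM per gene and library. Per the labels' processing notes, TopHat2 2.0.8, featureCounts 1.4.5-p1, SAMtools, DESeq2 and the build mm9 were used. The authors also deposited, for their own comparisons, adjusted p-values and log2 fold changes, which were not used. Reads, gene lengths and totals were worked out from the RPKM steps for all 15451 genes above 0, and the totals and reads on genes give the depth. The floor was 3 reads.

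RPKM were scaled by median ratio and log2-transformed with a pseudocount of 0.1. Genes that reached an RPKM of 1 in 3 or more libraries were tested with limma 3.58.1 (R 4.3.3; trend, two-sided, Benjamini-Hochberg over 9745 genes, threshold 0.05) on all 12 libraries. Over the 4943 to 5331 genes under 0.1 reads per base that could be compared, replicate pairs differed by 1.08 to 1.88 in chi-square per gene, where 1 is sampling noise. More abundant genes were not part of this comparison. In simulated data with 200 changed genes, 100 of 100 genes with added effects and 9 of 9545 unchanged genes were called. Of 100 cancelled genes 93 were classed as such. Each simulated effect was 0.5 on the log2 scale per agent. The median effects found here were smaller, 0.26 and 0.23 in genes higher with both and -0.31 and 0.26 in genes lower with OHT and higher with IACS. The simulated shares therefore do not give the sensitivity for effects of that size. Numbers did not pair the libraries.

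Members, lists and the naming rule were chosen with earlier results of these data known. Named were the 6 largest rises and falls without overlap and the 4 strongest genes per direction of adding and of cancelling effects, all with a mean RPKM of at least 2 and 30 reads per library in their highest group and no small RNA genes, further up to 3 per direction from each list, and 15 genes of the MYC, stress and BCL2 pathways. Cd3g, Gata2 and Hmgcs1 were named after its values were seen. Alternatives changed pseudocount, filter, scaling, weights, tool, block, covariate and libraries. Promoters were matched by symbol or a single synonym. Some genes that the rule named are not reported here.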

Additional observations from a re-analysis of the deposited data

Results flagged for a closer look

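In 14 genes the effect of IACS-010759 differed between cells with and without OHT, tested as the interaction in the same limma fit (adjusted p under 0.05). In all 14 the difference was positive, that is, IACS acted more upward in cells with OHT. Among immune and granule genes it was 1.06 on the log2 scale for Gzmb, 1.05 for Hk3, 0.99 for Cfp, 0.82 for Stab1, 0.69 for Il3ra and 0.42 for Rab44. Gzmb changed by -0.49 with OHT alone, 0.55 with IACS alone and 1.12 with both, and Hk3, a hexokinase of myeloid cells, by -2.08, 0.15 and -0.88. Among regulators and enzymes the difference was 0.51 for Mycn, 0.70 for Elk3, 1.88 for Rras, 0.37 for Cat, 0.58 for Tuba8, 0.94 for Ctrl, 0.63 for Ptprv and 0.70 for 4930404N11Rik. Rras had 10, 11 and 12 reads in untreated libraries and 3, 2 and 1 with IACS, so its value rests on few reads. Of the 14 genes, 12 were also called in OHT_IACS against untreated; Mycn (0.13) and Ptprv (0.03) were not.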

How the results depend on the processing

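Among the counts over all genes tested, those of adding and cancelling genes moved by more than 1.5 times with weights per library, which gave 1100 genes with both effects in the same direction (677 without weights) and 1156 with opposite effects and no net call (731 without weights). The cause was not tested. OHT_IACS against untreated gave 3850 calls and from 2973 (RPKM of at least 5, which tests fewer genes) to 4931 (weights per library) under the other settings that kept all libraries. Leaving out 1 library gave 3039 to 4296 calls, 490 to 653 genes with both effects in the same direction and 613 to 915 with opposite effects and no net call. Counts of some lists moved further with the library total as covariate. Covariate counts are given beside many of the lists, not beside all. A replicate block gave 3875 calls, and since same-numbered libraries correlated between -0.172 and 0.104 the numbers did not pair them. RPKM as deposited gave 2003 rises and 1678 falls, against 1778 and 2072 after scaling. Over all settings except those that left out 1 library, the median net change of the genes was at most 0.025 in absolute size. The 6 compared libraries alone gave 4648, voom on recovered reads 4209, and genes under 0.3 reads per base, a setting chosen after seeing the data, 3325. Of 162 named calls none changed direction, and 18 were lost with the library total as covariate, among them Bax, Pkm, Abca1, Ndrg1, Ppat and Keap1. Depth limits the genes near 0 reads and those of small change: the median SE of the net log2 fold change was 0.08.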
